A study of Mus musculus with 6 samples.

Results

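Cytosolic ribosomal protein genes were followed in BV2, an immortalised mouse line that stands in for microglia, the macrophages that live in the brain. Cultures received adenine, one of the purine bases from which cells can build nucleotides, for 1 h or were left without it. Members were all probes whose symbol in the array's platform annotation was Rpl or Rps with a number and at most a closing A, X, Y or L (with an optional digit), or was Rplp0, Rplp1, Rplp2 or Rpsa, with the Rps6k kinases left out. The rule found 48 of 26423 probes, for 39 genes of 17742 named on the array. The large subunit had 32 probes for 25 genes and the small subunit 16 probes for 14 genes. Cells were untreated (control), given a lower adenine dose or given a higher adenine dose, with 2 single-colour arrays in each group and no genetic change stated for any of them. The labels disagree on the doses, which are 20 and 80 µM in the titles and protocol but 80 and 250 µM in the characteristics. Both rank the groups alike, so only that order is used. Nothing states that arrays of the same group had a culture each, and without that the errors and p-values cover technical spread alone. All groups share the same cell line, so no result bears on other microglia.

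The ribosome translates mRNA into protein. Its small subunit reads the mRNA and its large subunit joins the amino acids, and each is built from ribosomal RNA and many ribosomal proteins that are needed in equal numbers. Messengers for these proteins are among the most abundant of a growing cell. They are short, come from compact genes and typically begin with a run of pyrimidines (C and T letters in the DNA), the terminal oligopyrimidine tract, through which mTOR signalling sets how well they are translated.

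RefSeq promoter sequences of assembly GRCm38.p6 (250 bases before to 50 after each annotated start) were matched for 34 of the 39 genes. These 4 stretches of 50 bases, 30 before the start and 20 from it on, were chosen among the member genes that have a pyrimidine run at the start, to show it in genes with different values at the higher dose. Rpl38 and Rpl14 rose, the Rpl15 probe did not pass, and 1 of 2 Rps15a probes fell. Capitals mark the unbroken run of C and T letters that holds the annotated start, and all are written 5′ to 3′ on the gene's strand. They lie at chr11:114668550-114668599 (+), chr9:120571487-120571536 (+), chr14:18270967-18271016 (−) and chr7:118116128-118116177 (−) in the order printed.
Rpl38: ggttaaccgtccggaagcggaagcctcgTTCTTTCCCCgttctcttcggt
Rpl14: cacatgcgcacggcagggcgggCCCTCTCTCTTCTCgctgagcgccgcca
Rpl15: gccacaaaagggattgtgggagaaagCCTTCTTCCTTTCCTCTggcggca
Rps15a: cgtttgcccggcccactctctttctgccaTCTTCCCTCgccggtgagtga
The runs were 10, 14, 17 and 9 letters long. A run of at least 8 letters holding the start was found in 8 of the 34 member genes (23.5%), against 4.59% of 27025 genes with a promoter. It was found in 4 of 19 genes with a probe that rose at the higher dose and in 4 of the other 15. Shorter runs were not counted and letters before the start were, so these are not counts of genes with the tract. Other motifs were searched on both strands over the whole 300 bases, and a gene counted if any of its listed starts had it. CCGGAAG, a core of ETS factor sites, was found in 41.2% of member genes and 9.93% of all genes. GCCATCTT, a core of YY1 sites, was found in 14.7% and 3.19%, and the hexamer CTTTCC, which can overlap a pyrimidine run, in 55.9% and 29.3%. Of the genes with a probe that rose, 7 of 19 held CCGGAAG, 1 held GCCATCTT and 8 held CTTTCC, and of the other 15 the numbers were 7, 4 and 11. A match is a description of these letters and not of a factor bound there.

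The higher-dose arrays stood apart from the other 4 over all probes. Pearson's r of log2 values over the 13211 brighter probes was 0.9894 between the higher-dose pair, against 0.9287 to 0.9406 between either of them and any of the remaining arrays. Microglia and macrophage markers were bright: 10 of 11 measured, among them Cd68, Csf1r and Trem2, lay above the median probe of 142.2 units, and the exception was Cx3cr1. Markers of fibroblasts had 0 of 5 above it, those of astrocytes 1 of 5, neurons 1 of 4, lymphocytes 2 of 4 and oligodendrocytes 3 of 4. At the higher dose 4 of the 11 microglial markers and 0 of the 22 others passed the test described next, as 10.6% of all probes did. The summed intensity of the 11 microglial markers was 79510 and 85540 units in control cells, 87920 and 82280 at the lower dose and 136900 and 122400 at the higher dose. That of the 22 markers of other cell types was 3833 and 4006 units in control cells, 4004 and 3143 at the lower dose and 4646 and 4343 at the higher dose. Both sums were highest on the higher-dose arrays, and their part in the results below was not tested. The microglial sum mostly reflects its brightest probes, since mean intensities ran from 102.8 units for Cx3cr1 to 41010 for Cd68. In bulk RNA, fewer cells of a type and less RNA per cell cannot be told apart.

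The plot of every member on every array shows the main pattern: most ribosomal protein probes were brighter at the higher dose and near control at the lower dose. Values are quantile-normalized intensities, so each is relative to the other probes of its array, and probes differ in brightness for reasons other than transcript level. Changes were tested with limma over all 26423 probes, and a probe passed at a Benjamini-Hochberg adjusted p below 0.05. At the higher dose against control, 23 of the 48 probes rose, 1 fell and 24 did not pass. Those that rose were 47.9% of the members, against a background of 5.55% of all probes higher, 5.06% lower and 10.6% either way. An unadjusted p below 0.05 was reached by 34 members, against 29.1% of all probes. The median log2 change was 0.84 over member probes and −0.01 over all probes. Both higher-dose arrays lay above both controls for 34 member probes (70.8%, background 28.8%) and below both for 7 (background 31.3%). By gene, 22 of 39 had a probe that rose, 16 had no probe that passed and 1, Rps15a, had a probe that fell.

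**Figure D1:**
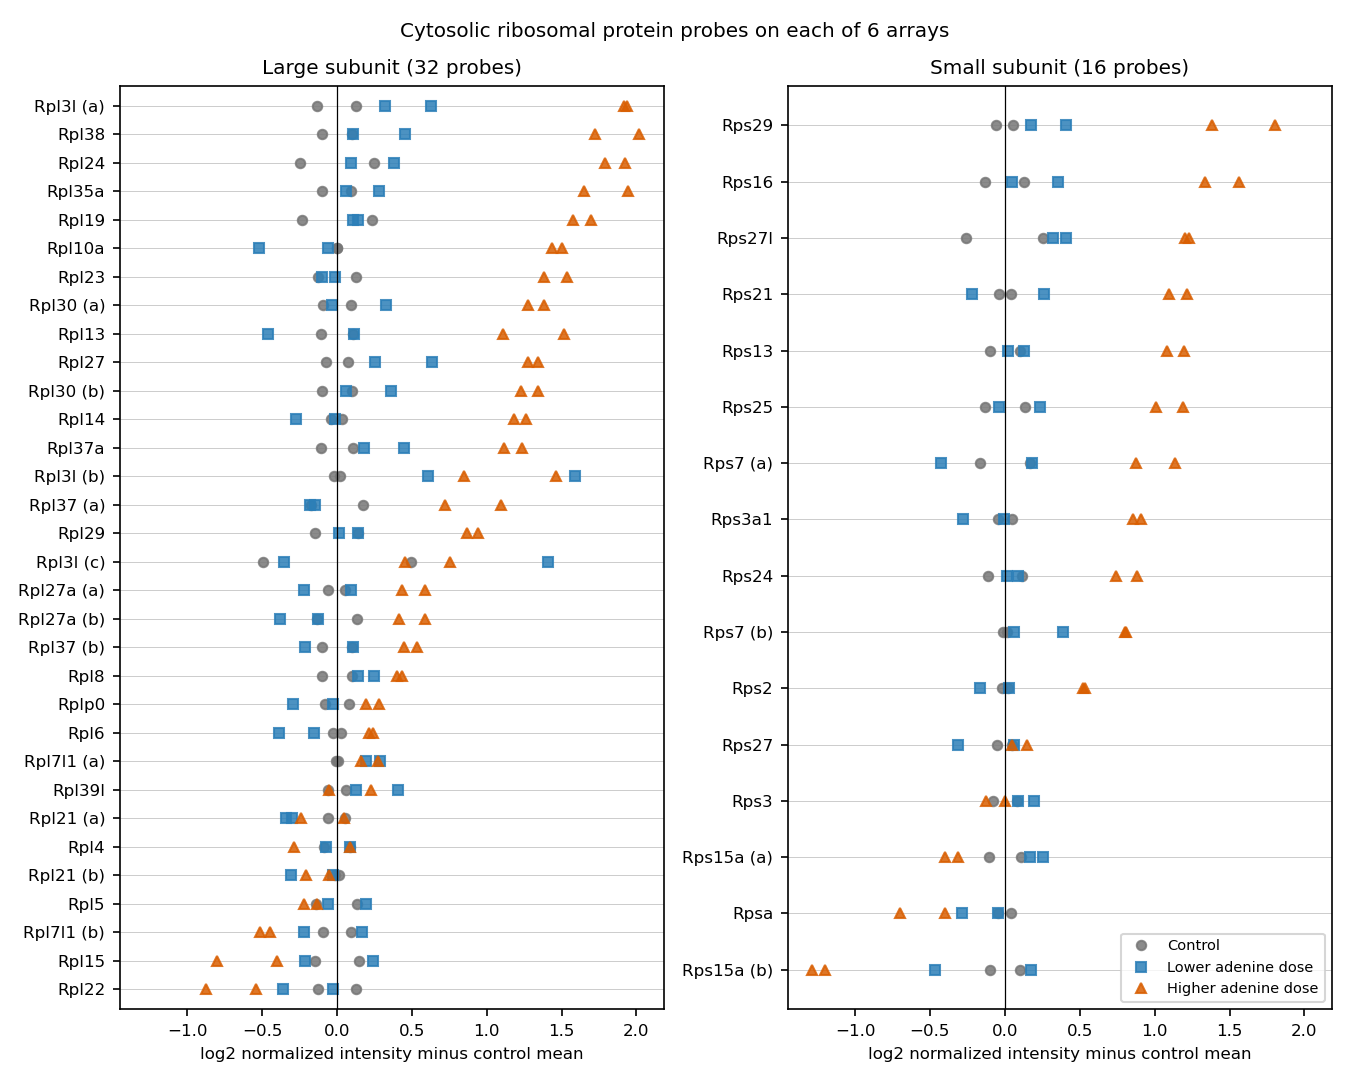
Each row is a probe, each symbol an array, and the x axis is log2 normalized intensity minus the mean of the 2 control arrays; letters tell apart probes of the same gene. Higher-dose triangles lie right of both controls for 34 of 48 probes and left of both for 7, while lower-dose squares mix with the controls for most.

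Array medians showed the same split in both subunits. Relative to the control mean, the median over the 48 probes was 0.02 and −0.02 on the control arrays, 0.11 and −0.02 at the lower dose and 0.86 and 0.77 at the higher dose. The higher-dose arrays stood well above the other 4, which lay close together. The calls rest on both control and both higher-dose arrays. Without control replicate 1, control replicate 2, higher-dose replicate 1 or higher-dose replicate 2, 0 of 48 probes passed in limma, as 5 to 28 of all 26423 did, while 26 or 27 of the 48 had an unadjusted p below 0.05. When both lower-dose arrays were dropped, 17 of the 48 passed in limma, 16 of them higher, as 1584 of all 26423 probes did. Without lower-dose replicate 1 or 2 alone, the median change was 0.84, as with all 6 arrays.

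Among large subunit proteins, 14 of 32 probes rose and 0 fell. Rpl38, a small protein whose loss in mice alters patterning of the axial skeleton, had 1425 and 1631 units in control cells, 2089 and 1645 at the lower dose and 5035 and 6178 at the higher dose. Both higher-dose arrays exceeded every other array, and lower-dose replicate 1 was the brightest of those. The rise over control was 3.66-fold (log2 1.87 ± 0.21, SE, n = 2 per group, limma adjusted p = 0.0199). Rpl24, which forms a bridge between the subunits, read 568 and 402 units in control cells, 509 and 621 at the lower dose and 1807 and 1649 at the higher dose. It rose 3.62-fold (1.85 ± 0.23, adjusted p = 0.0204).

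Rpl35a, a gene mutated in some patients with Diamond-Blackfan anaemia, an inherited failure of red cell production, read 330 and 377 units in control cells, 368 and 428 at the lower dose and 1104 and 1359 at the higher dose. It rose 3.48-fold (1.80 ± 0.19, adjusted p = 0.0199), with the lower-dose and control arrays overlapping. Rpl19, near the exit of the tunnel through which the new protein leaves, had 223 and 161 units in control cells, 204 and 209 at the lower dose and 614 and 565 at the higher dose. Its rise was 3.11-fold (1.64 ± 0.20, adjusted p = 0.0204). The other measured protein of the tunnel exit, Rpl22, had a negative value that did not pass.

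Rpl10a, the protein of the mobile stalk through which spent tRNA leaves, read 285 and 285 units in control cells, 273 and 198 at the lower dose and 805 and 769 at the higher dose. It rose 2.76-fold (1.47 ± 0.20, adjusted p = 0.0224). Rpl23, which can also bind the p53 regulator Mdm2, had 2224 and 1868 units in control cells, 1905 and 2021 at the lower dose and 5923 and 5303 at the higher dose. It rose 2.75-fold (1.46 ± 0.17, adjusted p = 0.0204). For both, neither lower-dose array exceeded the brighter control, and the higher-dose arrays stood alone.

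Rpl30, an RNA-binding protein of the subunit interface, was measured by a pair of probes that moved alike. The brighter read 4701 and 4100 units in control cells, 5648 and 4570 at the lower dose and 11157 and 10284 at the higher dose, and it rose 2.44-fold (1.29 ± 0.18, adjusted p = 0.0238). The other rose 2.52-fold (1.33 ± 0.19, adjusted p = 0.0239). Rpl13, Rpl27, Rpl14, Rpl37a and Rpl29 also rose, from 1.87-fold for Rpl29 to 2.49-fold for Rpl13, with adjusted p from 0.0219 (Rpl14) to 0.0432 (Rpl13). The 3 probes for Rpl3l are described with the paralogs.

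Among small subunit proteins, 9 of 16 probes rose and 1 fell. Rps29, a zinc-binding protein of the head of the subunit, read 98.5 and 106.5 units in control cells, 116 and 136 at the lower dose and 268 and 358 at the higher dose. It rose 3.02-fold (log2 1.60 ± 0.21, adjusted p = 0.0208). Rps16, also of the head and close to the tRNA sites, had 527 and 440 units in control cells, 497 and 617 at the lower dose and 1425 and 1215 at the higher dose, a rise of 2.73-fold (1.45 ± 0.20, adjusted p = 0.023). In both, the higher-dose arrays were clear of the rest, which for Rps29 included a lower dose slightly above control. Of 4 measured proteins of the head, Rps29, Rps16 and Rps25 (2.14-fold, 1.10 ± 0.19, adjusted p = 0.0319) rose and Rps3, which lines the entry of the mRNA channel, stood at −0.06 ± 0.16 (adjusted p = 0.834).

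Rps21, Rps13, Rps3a1 and Rps24 rose too, from 1.75-fold for Rps24, whose change of 0.81 ± 0.16 lay beside the small subunit median, to 2.23-fold for Rps21. Rps7, which like Rpl23 can bind Mdm2, had a bright probe with 16666 and 16338 units in control cells, 17227 and 21640 at the lower dose and 28887 and 28806 at the higher dose. That probe rose 1.75-fold (0.81 ± 0.17, adjusted p = 0.0486), just past the threshold. The dimmer Rps7 probe read 1.00 ± 0.27 (adjusted p = 0.0766), a larger change with a larger error that did not pass.

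Rps15a held the fall. Its probe with 268 and 233 units in control cells, 282 and 181 at the lower dose and 109 and 103 at the higher dose fell by 1.24 ± 0.25 on the log2 scale (2.37-fold lower, adjusted p = 0.043). The brighter Rps15a probe had 1190 and 1029 units in control cells, 1243 and 1320 at the lower dose and 890 and 840 at the higher dose. It read −0.35 ± 0.16 (adjusted p = 0.215). Both probes had both higher-dose arrays below all others, as 23.0% of all probes did, and only the dimmer passed.

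The subunits were set side by side. By probe, 43.8% of the large and 56.2% of the small subunit rose at the higher dose, both against the 5.55% background, with median log2 changes of 0.76 and 0.84. The large minus small difference of medians was −0.09, and by array it was −0.05 and 0.05 in control cells, −0.04 and −0.01 at the lower dose, and −0.07 and −0.20 at the higher dose. Its sign turned with the handling: it was 0.06 without the 2 probes near the scanner's ceiling and also 0.06 with 1 probe per gene, 0.03 over the 44 member probes above the median intensity, and −0.31 with log2(value + 16). No direction between the subunits can be read from these values. The middle of the large subunit list lies between Rpl29 at 0.91 ± 0.17 and an Rpl3l probe at 0.61 ± 0.65, and its quartiles were 0.18 and 1.32, against 0.06 and 1.14 for the small subunit.

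**Figure D2:**
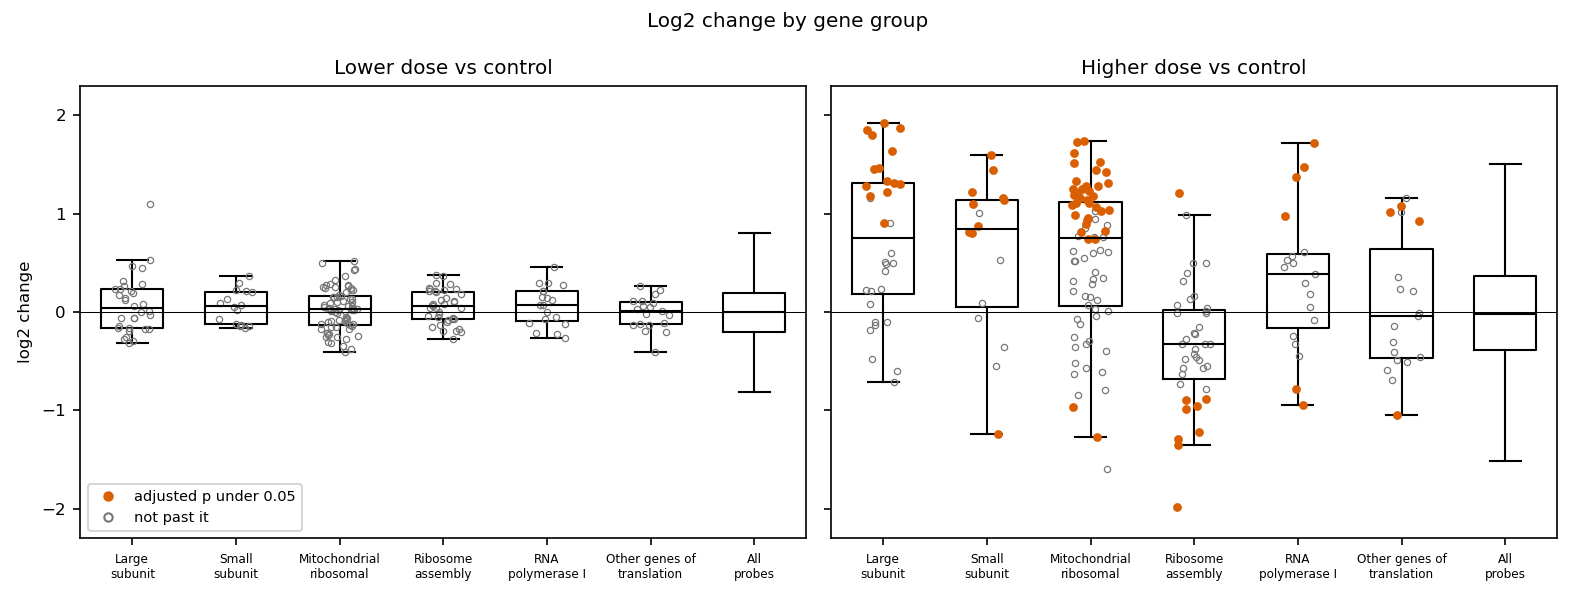
Boxes show the median and quartiles of the log2 change per gene group, whiskers reach at most 1.5 box lengths, dots are single probes (filled where adjusted p is below 0.05), and outlying points of the box for all probes are not drawn. At the higher dose the large subunit (median 0.76), small subunit (0.84) and mitochondrial ribosomal (0.75) boxes lie above 0. The ribosome assembly box has its median at −0.33 and its upper quartile at 0.02. At the lower dose every box straddles 0.

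The 24 probes that did not pass at the higher dose were of several kinds. Several had positive values of moderate size, with both higher-dose arrays above all others. They were Rpl37 (0.91 ± 0.21, adjusted p = 0.0573, and 0.49 ± 0.18 for its other probe), both probes of Rpl27a (0.51 ± 0.18 and 0.50 ± 0.19), Rps2 (0.53 ± 0.15, adjusted p = 0.0893) and the dimmer Rps7 probe. Rps2, with Rps3, lines the entry of the mRNA channel. A second kind lay near 0: Rpl6 (0.23 ± 0.16), Rps27 (0.10 ± 0.19), Rps3 and both probes of Rpl21 (−0.10 ± 0.17 and −0.13 ± 0.17).

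Rplp0, the base of the acidic stalk that recruits elongation factors and the only stalk gene of 4 listed that was measured, read 15089 and 13538 units in control cells, 14054 and 11657 at the lower dose and 17371 and 16378 at the higher dose. The higher-dose arrays were above the rest by a small margin, and the change was 0.24 ± 0.17 (adjusted p = 0.418). Rpl5, which carries the small RNA of the large subunit together with Rpl11, had 4807 and 3979 units in control cells, 4996 and 4192 at the lower dose and 3979 and 3749 at the higher dose. The higher-dose arrays lay below both lower-dose arrays and overlapped the controls, and the change from control was −0.18 ± 0.18 (adjusted p = 0.572). Rps27a, which is made as a fusion with ubiquitin, was not among the named probes used here.

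The remaining kind had negative values. Rpl22, a protein with a near copy (Rpl22l1) and a known part in lymphocyte development in mice, read 1063 and 1263 units in control cells, 903 and 1140 at the lower dose and 632 and 799 at the higher dose. Its change was −0.71 ± 0.22 (adjusted p = 0.104). Rpl15, mutated in some patients with Diamond-Blackfan anaemia, had 2909 and 3577 units in control cells, 3821 and 2779 at the lower dose and 1850 and 2445 at the higher dose (−0.60 ± 0.25, adjusted p = 0.194). Rpsa, also known as a laminin receptor, read 107.5 and 101.3 units in control cells, 85.7 and 101.0 at the lower dose and 64.3 and 79.0 at the higher dose (−0.55 ± 0.18, adjusted p = 0.123). In these 3 genes both higher-dose arrays lay below the other 4, and none passed. That order was found in 6 member probes and in 23.0% of all probes. With the test restricted to the 13211 brighter probes of the array, 28 of 44 member probes passed as higher and 3 as lower. Of those 13211 probes 5524 passed either way, against 2803 of 26423 without the restriction.

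The brightest members were near the scanner's ceiling, where a rise cannot be seen in full. Rpl4, which lines the tunnel of the large subunit, was deposited at 65487 units on control replicate 2 and lower-dose replicate 1 and at 65488 on higher-dose replicate 2, with 52692 to 57722 on the others. Its change of −0.10 ± 0.19 (adjusted p = 0.777), 0.07 on values as deposited, is bounded by that ceiling. Rpl8, at the centre where peptide bonds form, was deposited at 37325 and 44316 units in control cells, 48052 and 51420 at the lower dose and 65482 and 64855 at the higher dose. Both higher-dose values are close to the ceiling and exceed all others, so its 0.42 ± 0.16 (adjusted p = 0.154) may be too small. No member value lay below 1 unit, and 44 of the 48 probes had a mean above the median probe.

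Paralogs are relatives of standard ribosomal proteins, and some of them are near copies used in certain tissues or conditions. Of 8 listed genes 4 were measured, with 7 probes, of which 2 rose (28.6%, background 5.55%), 0 fell and 6 had a value above 0 at the higher dose. Rps27l, a copy of Rps27 known in human cells as a p53 target, had 12952 and 9079 units in control cells, 14388 and 13524 at the lower dose and 25473 and 24983 at the higher dose. It rose 2.33-fold (1.22 ± 0.21, adjusted p = 0.0321), whereas Rps27 itself read 178 and 166 units in control cells, 179 and 138 at the lower dose and 190 and 177 at the higher dose. Whether the pair differ in their change was not tested. Rpl39l, a copy of Rpl39 known from the testis, stood at 0.09 ± 0.19 (adjusted p = 0.803).

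Rpl3l, a copy of Rpl3 known from heart and skeletal muscle, had 3 probes. The brightest read 315 and 377 units in control cells, 430 and 531 at the lower dose and 1319 and 1300 at the higher dose, and it had the largest rise of any member, 3.80-fold (1.93 ± 0.19, adjusted p = 0.0186). The other two, with 5.83 to 17.8 and 53.8 to 201 units over the 6 arrays, were among the 4 members below the median probe. They read 1.16 ± 0.39 (adjusted p = 0.123) and 0.61 ± 0.65 (adjusted p = 0.592). The rise of this gene therefore rests on 1 of 3 probes. Rpl7l1, related to Rpl7, had probes of opposite sign, 0.22 ± 0.15 (adjusted p = 0.391) for the brighter and −0.48 ± 0.19 (adjusted p = 0.181) for the dimmer.

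**Figure D3:**
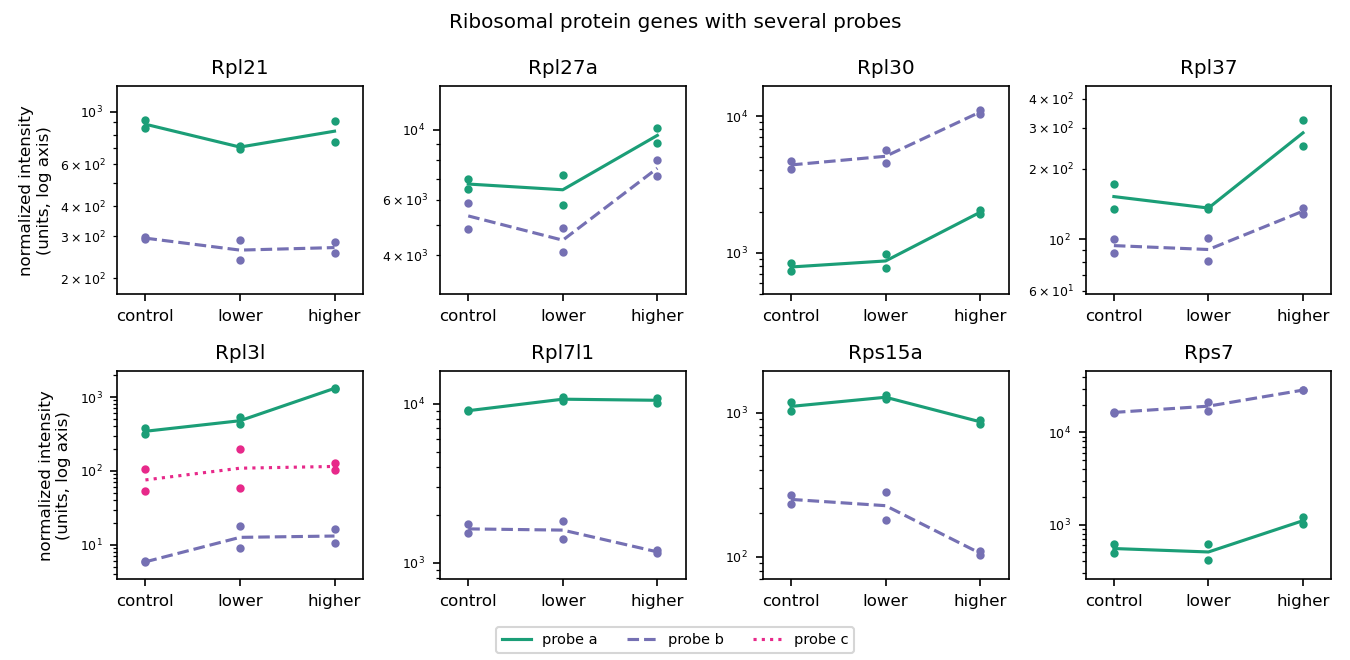
Normalized intensity (units, log axis) of the 8 genes with several probes; points are the 2 arrays of a group, lines join group means, and colours are probes. Both Rpl30 probes climb at the higher dose, both Rps15a probes lie lower there, and the Rpl7l1 probes part.

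In all, 8 genes had several probes. Their probes disagreed in call for 3 (Rps7, Rpl3l and Rps15a) and in sign for 1 (Rpl7l1). Ribosomal protein genes have many processed pseudogenes, and the RefSeq table names 128 for 28 of the 39 member genes. The probe sequences were not used here, so signal from such copies cannot be told apart from that of the named gene.

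The lower dose gave no member past the threshold in limma (0 of 48, smallest adjusted p 0.764), against a background of 0.0114% of all probes (0.00757% higher and 0.00378% lower), and 1 of 48 had an unadjusted p below 0.05, against 6.36% of all probes. The median change was 0.06 (0.23 on values as deposited, where all probes shifted by 0.22, and −0.03 with arrays scaled to equal medians). Values ran from −0.32 for Rpl21 to 1.10 for the dimmest Rpl3l probe. The 3 smallest p belonged to that Rpl3l probe (9 and 17.8 units at the lower dose and 5.83 and 6 in control cells, 1.10 ± 0.39), the brightest Rpl3l probe (0.47 ± 0.19) and Rpl27 (0.45 ± 0.19), each at adjusted p = 0.764. Rpl27, another Diamond-Blackfan gene, read 117 and 152 units at the lower dose and 103 and 93 units in control cells, so the groups did not overlap. Both lower-dose arrays were above both controls for 13 of 48 member probes (background 18.5%) and below both for 5 (background 16.6%).

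Against the lower dose, 22 member probes were higher at the higher dose and 1 was lower, against backgrounds of 6.78% and 6.95% (13.7% either way). This comparison shares the higher-dose arrays with the one against control, so the counts are not independent. The median was 0.76, and both higher-dose arrays lay above both lower-dose arrays for 33 probes (background 28.5%) and below both for 8 (background 30.7%). Rpl10a led with 1.76 ± 0.20 (adjusted p = 0.018), followed by Rpl35a (1.63 ± 0.19, adjusted p = 0.018) and Rpl24 (1.62 ± 0.23, adjusted p = 0.0218), and the dimmer Rps15a probe was lower (−1.10 ± 0.25, adjusted p = 0.0491). Rps27l (0.85 ± 0.21, adjusted p = 0.0584) and the bright Rps7 probe (0.58 ± 0.17, adjusted p = 0.0865) passed against control and not here. The brighter Rpl37 probe passed here (1.07 ± 0.21, adjusted p = 0.0361) and not against control. With only the lower- and higher-dose arrays in the fit, 0 of 48 passed, as 7 of all 26423 probes did, while 32 members had an unadjusted p below 0.05. With all 6 arrays 32 members had such a p, against 32.1% of all probes. The calls also did not hold in fits without any 1 of the 6 arrays, where the median change ran from 0.68 to 0.84. Such fits leave 1 array in a group.

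Of 17 listed genes of Diamond-Blackfan anaemia, 8 were measured, with 9 probes. Of these, 5 rose at the higher dose (Rpl35a, Rpl27, Rps29, Rps24 and the bright Rps7 probe) and 0 fell, with a median of 0.81. Rps15a, the gene with the member probe that fell, was not on the list used, so these counts leave it out. The share that rose, 55.6%, stands beside 47.9% of all members and 5.55% of all probes, and the median beside 0.84 for all members.

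Genes outside the rule were read from lists with 1 probe per gene, against a background of 6.37% of 17742 genes higher and 5.39% lower at the higher dose, and 0.0169% either way at the lower dose. On the same basis 22 of the 39 member genes rose and 0 fell, with a median of 0.91. Mitochondrial ribosomal protein genes, which build the separate ribosome of that organelle, had 32 of 67 genes that rose and 1 that fell at the higher dose, with a median of 0.77. Over all their 76 probes, 33 rose, 2 fell and the median was 0.75, beside 0.84 for the cytosolic members. The difference between the lists was not tested. Fau, which encodes a ubiquitin-like protein fused to a small subunit protein, read 1131 and 1370 units in control cells, 1199 and 1857 at the lower dose and 2936 and 2667 at the higher dose (1.17 ± 0.26, adjusted p = 0.0514). It was the only measured gene of 3 listed ribosomal proteins that lie outside the naming rule.

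Genes for assembling ribosomes mostly had negative values, in 28 of 39 measured of 51 listed, against 51.5% of all genes on the same basis. Of the 39, 1 rose and 8 fell at the higher dose, and the median was −0.33. Wdr12, part of a complex that matures the large subunit, had 84.4 and 100.3 units at the higher dose and 372 and 354 in control cells (−1.98 ± 0.25, adjusted p = 0.0207). Tcof1, a nucleolar cofactor of ribosomal RNA synthesis, had 1894 and 1706 units at the higher dose and 5015 and 4190 in control cells (−1.35 ± 0.17, adjusted p = 0.0204). Utp4, of the complex that processes the small subunit's RNA, had 5133 and 4875 units at the higher dose and 12514 and 10895 in control cells (−1.22 ± 0.16, adjusted p = 0.0207). The higher-dose arrays lay below both controls in each of these genes. Riok1, Mdn1, Wdr75, Heatr1 and Gnl2 fell as well, and Mrto4, a large subunit assembly factor related to Rplp0, rose (1.21 ± 0.19, adjusted p = 0.0275).

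RNA polymerase I transcribes the ribosomal RNA genes. Of its 19 subunits and factors, 4 rose and 2 fell (median 0.39). Polr2k (1.72 ± 0.14, adjusted p = 0.0177) and Polr2f, subunits shared by the nuclear RNA polymerases, rose, as did Polr1d (1.47 ± 0.21, adjusted p = 0.0239) and Znrd1 (0.98 ± 0.17, adjusted p = 0.0305), and Taf1a and Polr1e fell. Of 19 other genes of translation or with pyrimidine-tract messengers measured of 23 listed, 3 rose and 1 fell (median −0.04). Those that rose were the noncoding Snhg1 (0.92 ± 0.14, adjusted p = 0.0269), Naca, which binds new chains at the ribosome (1.02 ± 0.16, adjusted p = 0.0271), and the initiation factor subunit Eif3k (1.08 ± 0.18, adjusted p = 0.0308), while the initiation factor subunit Eif2s3x fell. In this list 15 genes did not pass.

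Of 19 measured regulators of pyrimidine-tract messengers and growth signalling, of 20 listed, 1 rose and 3 fell (median −0.21). Larp4, a poly(A) tail binding protein, had 2578 and 2487 units at the higher dose and 7881 and 7197 in control cells (−1.57 ± 0.15, adjusted p = 0.0186). Eif4ebp1, a repressor of cap-dependent initiation that mTOR switches off, had 12692 and 12431 units at the higher dose and 5199 and 4911 in control cells, and it rose (1.31 ± 0.15, adjusted p = 0.0199). Its relative Eif4ebp2 fell, as did Tial1, an RNA-binding protein that represses pyrimidine-tract messengers (−1.09 ± 0.19, adjusted p = 0.0324). At the lower dose 0 genes of these lists passed in limma. An unadjusted p below 0.05 was reached there by 2 of the 67 mitochondrial ribosomal genes, 2 of the 19 regulators, 1 of the 19 polymerase genes and 0 genes of the other lists, against 5.73% of all genes on the same basis.

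Short gene span was a property the members shared that the naming rule did not use. The 39 genes spanned 0.982 to 11.8 kb with a median of 4.14 kb in the GRCm38.p6 table, against a median of 19.3 kb over 17708 named genes. The change at the higher dose was smaller for longer genes: Spearman's rho was −0.196 over all named genes and −0.267 over the 39 member genes, descriptions across genes that share the same 6 arrays. Short members had differing values, such as 1.60 for Rps29 (1465 bases) and 0.10 for Rps27 (982 bases). After the trend of each array with span was removed, 21 member probes rose, 1 fell and the median was 0.72, against −0.02 over all probes with a span. Of those 20336 probes, 2595 passed either way. The part of span in the rise was not tested. Change and mean intensity had a rho of −0.168 over the 39 genes.

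**Figure D4:**
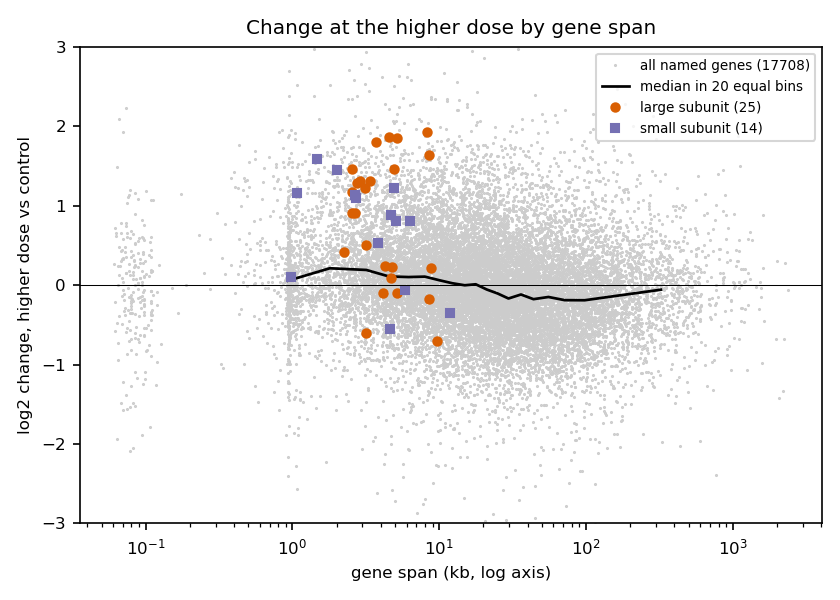
Gene span (kb, log axis) against the log2 change at the higher dose, 1 probe per gene; grey points are all named genes (those beyond 3 log2 units are not drawn), the line is their median in bins of equal gene number, and coloured symbols are the members. Members lie at spans of 0.982 to 11.8 kb, and most stand above the line at their span.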

How the data were processed

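Cy5-labelled cDNA of each sample was read on its own Phalanx mouse OneArray, per the labels' protocols. What was deposited is linear intensity per probe, with some values below 0, as background subtraction leaves. RMA is named in the submitters' processing notes, yet array medians run from 125 to 170 units, so no normalization between arrays was assumed. How spots were averaged is not stated in those sources.

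The 6 arrays were quantile-normalized, values under 1 unit were set to 1, and log2 was taken. One limma 3.58.1 model (lmFit, eBayes, R 4.3.3) took all 6 arrays with a mean for each group, which leaves 3 residual degrees of freedom. Tests were two-sided, with Benjamini-Hochberg adjustment over 26423 probes and a threshold of 0.05. Errors are standard errors of log2 changes. Having 2 arrays per group limits the precision. The fit was tested on simulated data. Values from 65000 units up were taken as near the ceiling. Platform symbols, given for 20377 probes, were updated through the RefSeq table by exact match (18213) or a unique synonym (2126), and 38 were kept. For genes outside the rule, the probe brightest on average was used. Other steps ran in Python 3.11.15.

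The members and lists were chosen with earlier results of these data known. Named members were the 10 largest rises and falls past the threshold, those passing in the other comparisons, the 3 of smallest p at the lower dose, those with discordant or near-ceiling probes, the role groups, the subunit medians and the dimmest and brightest. From other lists the 3 of smallest p were named, and further names were added after their values were seen. Alternatives were no normalization, equal medians, only probes above the median intensity, the replicate number as a block, log2(value + 16), only the groups compared, leaving out each array, removal of the lowess trend with gene span, leaving out probes near the ceiling, and 1 probe per gene.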

Additional observations from a re-analysis of the deposited data

How the results depend on the processing

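All 24 member probes that passed at the higher dose kept their direction under all 13 alternatives, and the log2 change of the 23 that rose stayed between 0.67 and 2.10. Calls were less stable than directions. At the higher dose against control, 24 members passed, as 2803 of all 26423 probes did. These calls did not hold when a control or higher-dose array was left out. Under 6 alternatives to the fit 17 to 31 members passed, as 1584 to 5524 of the probes tested did. With the replicate number as a block 0 members passed (11 of all probes). With the block, 32 of the 48 still had an unadjusted p below 0.05. Against the lower dose 23 members passed (3629 of all probes), and 11 did with the block (1395 of all probes). With only the groups compared 0 did (7 of all probes), and the calls did not hold when any array was left out. Fits without 1 array have 2 residual degrees of freedom. The titles number the arrays of each group, but same-numbered deviations correlated at 0.0326, 0.313 and −0.226 between groups, so the numbers were not taken to pair the arrays. The median change at the higher dose was 0.9152 on values as deposited and 0.7153 without the span trend, and 0.7716 to 0.862 with an array left out. Against the lower dose it was 0.8793 with equal medians, 0.8402 above the median intensity, 0.6135 without the span trend, 0.8548 with 1 probe per gene and 0.6792 to 0.8358 with an array left out. The lower-dose median was 0.227 as deposited, −0.0257 with equal medians and −0.0175 to 0.1111 with an array left out. The large minus small difference was 0.0257 above the median intensity, −0.3115 with log2(value + 16), 0.0614 below the ceiling, 0.0623 with 1 probe per gene and −0.2023 to 0.0791 with an array left out. Among members that did not pass, 5 changed sign. Without the span trend, Rps27 read −0.0419 and Rpl39l −0.0484, and on values as deposited Rpl4 read 0.0658. With an array left out, Rpl39l ran from −0.0555 to 0.2309, Rps3 from −0.1443 to 0.0202, Rpl21 from −0.2419 to 0.0483 and Rpl4 from −0.2848 to 0.0842. The cause of these changes was not tested.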
